A study of Salmo salar with 8 samples.

Results

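The arrays used for this study of single Atlantic salmon (Salmo salar) eggs carry a large class of oligonucleotide probes whose target names begin with OM_UG27, and these probes are described here. They were chosen by that name prefix alone, without any measured value: 16505 of the 55468 probes on the array (29.8%), for 16503 target names. A further 35676 probes have a number as their whole name, which served as the comparison, and 2992 carry names with the prefix SS_UG. SS_UG names that end in _AS are not counted there, whereas the 14 OM_UG27 names with that ending were kept. The remaining probes formed no class. The files do not say what either prefix stands for, and they hold no probe sequences, so none can be shown. No member could be given a gene: 0 of the 16503 names matched an identifier in the reference table of salmon genes. The members are therefore called by their target names on the array, and the labelled tissue, embryo, could not be checked against marker genes.

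Eggs were exposed to road salt at 5000 mg/L or kept in lake water (control) from fertilisation to 24 h, with 4 eggs in each group and 1 array per egg. RNA was taken from each egg on its own, and the labels do not say whether eggs shared parents or a vessel, so p-values measure only the spread between these eggs. The sample titles name the eyed stage while the descriptions give 24 h, so the age at sampling is not settled. The 2 slides each held 2 eggs of both groups: salt eggs 1 and 3 with control eggs 2 and 3 on slide 1, salt eggs 5 and 6 with control eggs 4 and 5 on slide 2.

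An oligonucleotide probe is a short synthetic DNA strand fixed to the glass, and its spot lights up in proportion to the labelled RNA that binds to it. The signal depends on how well the probe pairs with its target as well as on how much target there is, so signals of different probes do not rank transcripts. A fertilised fish egg starts out on RNA laid down by the mother and turns to its own genes later in development. Road salt is mainly sodium chloride, which raises the osmotic load on an egg in its first hours after fertilisation.

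OM_UG27 probes were detected less often than number-only probes on all 8 arrays. A probe was counted as detected where the scanner software called at least 50% of its spots well above background. The share detected was 47.3%, 40.6%, 46.6% and 53.2% in salt eggs 1, 3, 5 and 6, and 46.9%, 50.2%, 45.6% and 41.6% in control eggs 2, 3, 4 and 5. The salt eggs averaged 47.0% ± 5.15 and the control eggs 46.1% ± 3.57 (SD, n = 4 each), so the groups overlapped. Number-only probes were detected at 65.7% ± 3.76 in salt eggs and 64.6% ± 3.09 in control eggs (SD, n = 4 each). The gap between the classes lay between -20.3 and -16.8 percentage points in every egg. SS_UG probes were detected most often, at 71.0% to 80.0% over the 8 eggs. The brightest arrays, by the 75th percentile of the probe signal, were salt egg 6 (167 intensity units) and control egg 3 (163 units), and these eggs also had the highest share of members detected in their groups. The dimmest array of each group had the lowest share. Between these the order was reversed: salt egg 5 (150 units) lay below salt egg 1 (110 units), and control egg 4 (123 units) below control egg 2 (106 units).

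Detection of a member, like that of a number-only probe, was mostly all or nothing. Of the 16505 members, 6591 (39.9%) were detected on no array and 5670 (34.4%) on all 8 arrays, against 24.7% and 55.1% of number-only probes. Members detected in all 4 salt eggs and in no control egg numbered 19, and those detected in all 4 control eggs and in no salt egg numbered 18. These are 0.115% and 0.109% of the members, beside 0.106% and 0.0667% of all probes.

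The members were also dimmer as a class. Levels are given as log2 signal relative to the 75th percentile of the same array, so that 0 is the level which 25% of all probes exceed. The median member lay at -3.70, -4.01, -4.03 and -3.75 in salt eggs 1, 3, 5 and 6, and at -3.61, -3.80, -4.09 and -3.89 in control eggs 2, 3, 4 and 5. The median number-only probe lay between -2.23 and -2.03 over the 8 eggs. The class difference was -1.76 ± 0.11 in salt eggs and -1.72 ± 0.11 in control eggs (log2, SD, n = 4 each), and was negative in 8 of 8 eggs. With the normexp background correction, which adds an offset of 50 to every spot, the mean class difference was -0.38, against -1.74 in the main setting. Over the 8 arrays, 10.5% of the members had a mean level above 0, against 30.0% of number-only probes.

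At a given level the members and the number-only probes were detected at nearly the same rate. Detection is called from the signal of the same spots that set the level, so this closeness largely follows from the matching. For this comparison probes were put in bins of 0.25 (log2) of their mean level over the 8 arrays, and the number-only bins were weighted by the number of members in each. The detected share of members then averaged 46.9% in salt eggs, against 47.3% for number-only probes. In control eggs it averaged 46.0% for members and 45.9% for number-only probes. The difference in single eggs ran from -1.37 (control egg 4) to 1.80 (control egg 2) percentage points.

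The 4 brightest members held signals far above the class. OM_UG27_48428132 lay at 9.62, 9.79, 9.61 and 9.43 in salt eggs 1, 3, 5 and 6, and at 9.69, 9.38, 9.93 and 10.13 in control eggs 2, 3, 4 and 5. Its groups overlapped, and the difference of -0.17 (SE 0.20) did not pass in limma (adjusted p = 0.720). OM_UG27_51824250 averaged 8.84 ± 0.05 in salt eggs and 9.04 ± 0.34 in control eggs (log2, SD, n = 4 each), and its groups overlapped too. The other 2 brightest members, OM_UG27_56290392 and OM_UG27_56236193, were less even. OM_UG27_56290392 lay at 8.76, 10.06, 9.74 and 9.05 in salt eggs 1, 3, 5 and 6, and at 9.99, 9.35, 4.99 and 5.52 in control eggs 2, 3, 4 and 5. Control eggs 4 and 5 stood apart below the other 6 eggs, which overlapped, and OM_UG27_56236193 showed the same order, with 4.81 and 5.31 in control eggs 4 and 5.

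The level of many members moved from egg to egg, and this differed with the number in their name. The numbers that follow the prefix run from 15239299 to 56300497, with a gap between 55834647 and 56173646. Of the members, 12457 have a number of 56000000 or more and 4048 a lower one. This split was chosen after the values had been seen, so what follows is a description without a test. The level of each probe was set against its own mean over the 8 eggs, and the median was taken per egg over the members tested for salt (those detected in all 4 eggs of at least 1 group).

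Among the 5160 tested members with high numbers, that median deviation was -0.01, -0.01, -0.13 and -0.02 in salt eggs 1, 3, 5 and 6, and 0.28, 0.07, -0.18 and 0.06 in control eggs 2, 3, 4 and 5. Relative to number-only probes of matched level, control egg 2 stood at 0.32 and control egg 4 at -0.22, while the salt eggs lay between -0.13 and -0.02. The 2 control eggs farthest apart were thus on opposite sides of all 4 salt eggs. The 1630 tested members with lower numbers did not share this pattern: their deviation relative to matched number-only probes lay between -0.02 and 0.03 over the 8 eggs.

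The contrast between control eggs 2 and 4 shows the size of this shift. High-number members were brighter in control egg 2 than in control egg 4 at every level: the median difference was 0.49 (log2) for 1890 members with a mean level up to -2, and 0.44 for 2038 between -2 and 0. It was 0.42 for 798 members between 0 and 2, and 0.53 for 434 above 2. With this scaling number-only probes changed direction with level, at 0.25, -0.05, -0.50 and -0.70 in the same 4 ranges. Lower-number members changed direction with level as well, at 0.10, -0.12, -0.34 and -0.35, and SS_UG probes stood at -0.02, -0.31, -0.61 and -0.79. Above a level of 2, 73.7% of the high-number members were brighter in control egg 2, against 18.8% of number-only probes. At matched level the contrast was 0.48 for high-number members and -0.06 for number-only probes, a gap of 0.53. With median centring these were 0.16 and -0.37, again a gap of 0.53. The direction within a class thus depends on how the arrays are scaled. The gap was 0.33 with normexp, and 0.28 with no filter on dim probes, where number-only probes stood at 0.15. Control eggs 2 and 4 were on different slides, so that egg and slide cannot be told apart in this contrast.

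A smaller set of members was far lower in control eggs 4 and 5 than in the other controls. In 106 of the 6790 tested members (1.56%) both of these eggs lay more than 2 (log2) below both control eggs 2 and 3, as did 0.752% of tested number-only probes. Among members with a mean level above 2 it was 42 of 596 (7.05%), against 1.66% of number-only probes. The reverse, control eggs 4 and 5 higher by more than 2, was seen for 7 members (0.103% of those tested, against 0.0779% of number-only probes). This set was chosen after the values had been seen and is given without a test. Of the 106, 2 passed the test of salt against control described further on, as did 1 of the 164 such number-only probes. Of all tested probes 0.921% did. The median level of the 106 members was 0.43, 2.72, 2.69 and 0.87 in salt eggs 1, 3, 5 and 6, and 2.80, 2.22, -2.54 and -2.13 in control eggs 2, 3, 4 and 5. Salt eggs 1 and 6 both lay below salt eggs 3 and 5 for 99 of the 106 (93.4%), an order found for 15.5% of all tested members. The 164 number-only probes of the same kind showed this order in 92.1%. Both of control eggs 4 and 5 were on slide 2, whereas salt eggs 1 and 6 were on different slides.

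The members with the largest SD among control eggs were of this kind. OM_UG27_56247822 lay at 4.90, 8.45, 8.10 and 6.04 in salt eggs 1, 3, 5 and 6, and at 7.98, 7.50, -1.56 and -0.89 in control eggs 2, 3, 4 and 5. Its signal was 41.6 and 47.4 intensity units in control eggs 4 and 5, against 26830 and 29509 units in control eggs 2 and 3. OM_UG27_56276572 (SD 4.68 among control eggs) and OM_UG27_56243675 (SD 4.30) had the same order of eggs, with salt egg 3 highest and salt egg 1 lowest of the salt eggs, and control egg 2 highest and control egg 4 lowest of the controls. None of the 3 passed the test of salt against control, with limma adjusted p between 0.447 and 0.502. All 3 passed it within slide 2 alone, where control eggs 4 and 5 are the only controls. The low values of these eggs also put the 3 on the list, so that pass was largely set by the choice.

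The members with the largest SD among salt eggs each rested on 1 egg and 1 spot. OM_UG27_56233362 lay at 10.48, -1.30, -1.19 and -1.08 in salt eggs 1, 3, 5 and 6, and at most -0.60 in the control eggs. OM_UG27_21940193 was likewise at 11.42 in salt egg 1, between 0.995 and 1.35 in the other salt eggs, and between -0.03 and 1.21 in control eggs. OM_UG27_56299070 was at 3.68 in salt egg 5, between -2.31 and -1.65 in the other salt eggs, and between -1.27 and 0.08 in control eggs. Each has a single spot on the array, so no second spot can be set beside the high value, and none passed the test (limma adjusted p between 0.488 and 0.989).

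For most members the spread between eggs of a group was close to that of number-only probes of the same level. The median SD within groups was 0.35 (log2) for the members and 0.34 for matched number-only probes. Among salt eggs the median SD was 0.26 for members and 0.24 for matched number-only probes; among control eggs it was 0.39 and 0.38. Both classes varied more among control eggs than among salt eggs. Spots of the same probe on 1 array differed with a median SD of 0.17 for the 732 members with repeat spots that could be matched, and 0.16 for number-only probes. The difference in spread between the classes, 0.013, changed sign with median centring (-0.014) and with no scaling (-0.008), so no direction is read from it.

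The salt response was tested in the 6790 members (41.1% of the class) that were detected in all 4 eggs of at least 1 group, together with all other such probes, 30941 in all. This filter admits members through the group in which they are bright, so that the counts depend on it. In limma, with p-values adjusted by Benjamini-Hochberg over all tested probes, 105 members passed an adjusted p of 0.05 for salt against control, which is 1.55% of those tested. Of all tested probes 0.921% passed, of number-only probes 0.743% and of SS_UG probes 0.789%. The members made up 21.9% of the tested probes and 36.8% of the 285 that passed. Among probes detected on all 8 arrays 24 members passed (0.423%, against 0.218% of number-only probes), and with no filter 66 (0.400%, against 0.252%). At matched level, 1.51% of members and 1.02% of number-only probes passed. Without matching on level, the share was higher in members than in number-only probes in 22 of 25 alternative settings. These settings all draw on the same 8 arrays and do not repeat the experiment. It was lower in 1, without salt egg 6, where no member and 0.00458% of number-only probes passed, and 0 in both classes in the other 2. Whether the share differs between the classes beyond the spread of eggs was not tested, since probes of 1 egg are not independent.

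Increases outnumbered decreases among the members that passed. In salt eggs 80 members were higher (1.18% of those tested, against 0.75% of all tested probes) and 25 were lower (0.368%, against 0.171% of all tested probes). Thus 76.2% of the differing members were higher, as were 84.0% of the differing number-only probes. The split was 47 higher and 3 lower with normexp (together 0.736% of tested members, against 0.238% of number-only probes). It was 140 higher and 12 lower with no scaling (together 2.24%, against 1.13%). No scaling put the median difference of all tested probes at 0.16 (log2), against 0.00 in the main setting. Without control egg 4 the split was 79 higher and 90 lower (together 2.49%, against 1.21%). At an unadjusted p under 0.05, which 1528 members (22.5%) and 16.4% of all tested probes reached, the balance was the other way round. There 627 members were higher (9.23%, against 8.08% of all tested probes) and 901 lower (13.3%, against 8.35%).

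The count of 105 calls changed with the eggs included, and leaving out eggs also leaves fewer to test. Without salt egg 6 none remained (1129 members at an unadjusted p under 0.05), without control egg 5 there were 10, without salt egg 1 there were 13, and without salt egg 3 or 5 there were 53 or 48. Without control egg 3 there were 61, and without control egg 2 or 4 there were 176 or 169. On slide 2 by itself limma called 147 members and on slide 1 by itself 0 (1208 with an unadjusted p under 0.05). Without control eggs 4 and 5 there were 94, of which 40 were higher, and only 39 of the 94 were among the 105. Without control eggs 2 and 3 there were 374, of which 90 were among the 105. Number-only probes moved in the same way: the share past the threshold was 2.16% of members and 0.926% of number-only probes on slide 2, 1.38% and 0.784% without control eggs 4 and 5, and 5.51% and 2.87% without control eggs 2 and 3. Leaving out 1 egg gave 0 to 2.59% of members and 0.00458% to 1.16% of number-only probes. The unadjusted counts without salt egg 6 and on slide 1 were 16.6% and 17.8% of members, against 10.4% and 11.8% of number-only probes. In no member did the salt difference itself differ between slides past the adjusted threshold (limma, lowest adjusted p 0.278). At an unadjusted p under 0.05 it differed in 621 members (9.15%), against 8.4% of all tested probes. With 2 eggs of each group on a slide, 0 of all tested probes passed the adjusted threshold. The lack of calls therefore does not show that the slides agree.

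Of the 80 members that rose, 30 averaged above 0 in salt eggs and 1 in control eggs. Their median level was 0.15, -0.44, -0.50 and -0.21 in salt eggs 1, 3, 5 and 6, and -2.29, -3.25, -3.54 and -3.53 in control eggs 2, 3, 4 and 5. In each of the 80 all salt eggs lay above all control eggs. These members were chosen by their difference in the same values, so this separation largely follows from the choice. Over all tested probes, salt and control eggs were fully separated in 9.89% and in 855 members (12.6%). The median difference was 2.41 (log2), or 5.33-fold, with a range of 0.91 to 4.64. It was 2.05 on slide 1 and 2.67 on slide 2, and 1.03 with normexp. All 80 were detected in every salt egg, as the filter for testing largely requires of a member that rose. Of these, 29 were also detected in every control egg and 8 in no control egg. For those 8 the increase over the floor described below ran between 2.47-fold and 7.34-fold.

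The largest increase among members detected in all 8 eggs was that of OM_UG27_34313521 (probe CUST_38653). It lay at 1.47, 0.53, 0.08 and 0.72 in salt eggs 1, 3, 5 and 6, and at -1.87, -2.65, -2.85 and -3.30 in control eggs 2, 3, 4 and 5. Every salt egg was above every control egg, with a difference of 3.37 (SE 0.35, 10.3-fold, limma adjusted p = 0.0111). Its control signals were low, between 8.90 and 29.1 intensity units, so the size of the fold depends on the background correction. OM_UG27_56279060 (CUST_49981) came next, at 0.70, -0.06, -0.19 and 0.14 in salt eggs and -2.05, -3.26, -3.10 and -3.09 in control eggs. Its difference was 3.02 (SE 0.30, limma adjusted p = 0.0111), and control egg 2 was the highest control in both members. The difference was 3.26 on slide 1 and 3.48 on slide 2 for OM_UG27_34313521, and 2.98 and 3.07 for OM_UG27_56279060. Both lost the call without salt egg 6 (limma adjusted p = 0.0648), with the difference still at 3.36 and 3.03. With normexp both passed (limma adjusted p = 0.0125 and 0.0130), with smaller differences of 1.79 and 1.36 (log2). Each passed in 21 of 24 alternatives.

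OM_UG27_56280808 (CUST_50173) averaged 0.90 ± 0.43 in salt eggs and -1.90 ± 0.69 in control eggs (log2, SD, n = 4 each), with a difference of 2.80 (SE 0.35, limma adjusted p = 0.0140). Salt egg 1 was the highest salt egg here, as it was in each of the 6 largest increases. OM_UG27_19716371 (CUST_37865) averaged 0.36 ± 0.48 in salt eggs and -2.03 ± 0.34 in control eggs (log2, SD, n = 4 each). It rose by 2.40 (limma adjusted p = 0.0111). OM_UG27_56256284 (CUST_47505) and OM_UG27_56259237 (CUST_47814) rose by 2.16 and 2.13 (limma adjusted p = 0.0175 and 0.0181). Their salt levels averaged 0.72 ± 0.38 and -0.11 ± 0.49, against control levels of -1.43 ± 0.54 and -2.24 ± 0.50 (log2, SD, n = 4 each). With normexp OM_UG27_56280808, OM_UG27_19716371, OM_UG27_56256284 and OM_UG27_56259237 rose by 1.72, 1.24, 1.34 and 1.05 (log2). They passed there (limma adjusted p between 0.0125 and 0.0336) and, in this order, in 19, 21, 18 and 18 of 24 alternatives.

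Some members that rose were not detected in any control egg, and their differences are given against a floor. The salt mean was set against a control mean with each lower control value raised to the lowest signal of any detected probe on that array. An undetected value can lie above this floor, as for OM_UG27_56287098 in control egg 2 (-3.30). The folds are therefore not strict lower bounds. OM_UG27_56286806 (CUST_50897) lay at -0.86, -1.92, -1.35 and -1.42 in salt eggs 1, 3, 5 and 6, and at -3.90, -6.11, -5.87 and -5.31 in control eggs 2, 3, 4 and 5, where it was not well above background in any egg. It was 7.34-fold higher in salt eggs against this floor (measured means -1.39 in salt and -5.30 in control, limma adjusted p = 0.0111). Against the floor, OM_UG27_34424371 (CUST_38942) was 2.78-fold and OM_UG27_56287098 (CUST_50941) 4.23-fold higher (limma adjusted p = 0.0175 and 0.0466). These 3 entered the test through the salt eggs alone. With no filter on dim probes OM_UG27_56286806 and OM_UG27_34424371 passed (limma adjusted p = 0.0259 and 0.0348) and OM_UG27_56287098 did not (0.0797). With normexp none of the 3 passed (limma adjusted p between 0.189 and 0.495). Their differences were then 0.71 for OM_UG27_56286806, 0.30 for OM_UG27_34424371 and 0.38 for OM_UG27_56287098 (log2).

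Of the 25 members that fell, 4 averaged above 0 in salt eggs and the same number in control eggs. Their median level was -3.45, -3.33, -3.49 and -3.33 in salt eggs 1, 3, 5 and 6, and -2.26, -2.34, -2.48 and -2.23 in control eggs 2, 3, 4 and 5. The 4 eggs of each group lay close together, and every salt median was below every control median. Both largely follow from choosing these members by a test on the same values. The median difference was -1.12 (2.18-fold lower) with a range of -1.90 to -0.76. It was -1.07 on slide 1, -1.07 on slide 2 and -0.33 with normexp. All 25 were detected in every control egg, as the filter for testing largely requires of a member that fell. Of these, 11 were also detected in every salt egg and 6 in none. For those 6 the decrease to such a floor, set on the salt values, ran between 1.60-fold and 2.79-fold.

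Of the members detected in all 8 eggs, OM_UG27_56240104 (CUST_45990) fell most. It lay at 3.35, 3.71, 3.35 and 3.61 in salt eggs 1, 3, 5 and 6, and at 4.90, 4.37, 4.82 and 4.77 in control eggs 2, 3, 4 and 5. Its groups were separated by more than either group's range, with a difference of -1.21 (SE 0.18, limma adjusted p = 0.0189), and it passed with normexp too (-1.13, adjusted p = 0.0125). It was no longer past the threshold in 9 of 24 alternatives, among them no scaling (adjusted p = 0.173) and leaving out control egg 5 (0.0694) or salt egg 1, 5 or 6 (0.0869, 0.0585 and 0.0768).

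OM_UG27_56216804 (CUST_43975) averaged -1.75 ± 0.12 in salt eggs and -0.55 ± 0.24 in control eggs (log2, SD, n = 4 each). It fell by 1.20 on the log2 scale (limma adjusted p = 0.0176). OM_UG27_56238364 (CUST_45887) fell by 1.19 and OM_UG27_56192281 (CUST_41441) by 1.03 on the log2 scale (limma adjusted p = 0.0304 and 0.0369). The salt eggs of each lay close together, with SDs of 0.17 and 0.12, and the control eggs spread more, with SDs of 0.32 and 0.28. OM_UG27_34421996 (CUST_38805) and OM_UG27_15264486 (CUST_36105) fell by 0.97 and 0.91 on the log2 scale (limma adjusted p = 0.0400 and 0.0495). With normexp these 5 members did not pass (limma adjusted p between 0.0582 and 0.330). Of 24 alternatives OM_UG27_56216804 passed in 15, OM_UG27_56238364 in 12, OM_UG27_34421996 in 10, OM_UG27_56192281 in 9 and OM_UG27_15264486 in 6.

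Among the decreases not detected in any salt egg, OM_UG27_56209515 (CUST_43225) lay at -4.67, -5.42, -4.80 and -4.52 in salt eggs 1, 3, 5 and 6, and at -2.63, -3.45, -3.31 and -2.41 in control eggs 2, 3, 4 and 5. It was 2.64-fold lower in salt eggs against the floor (measured means -4.85 in salt and -2.95 in control, limma adjusted p = 0.0198). Against the floor, OM_UG27_56189978 (CUST_41232) was 2.22-fold and OM_UG27_56259001 (CUST_47780) 2.75-fold lower in salt eggs (limma adjusted p = 0.0311 for each). These 3 entered the test through the control eggs alone. With no filter only OM_UG27_56209515 passed (limma adjusted p = 0.0425, against 0.0624 for each of the others). With normexp none did (limma adjusted p 0.478 to 0.566). The normexp differences were -0.33 for OM_UG27_56209515, -0.26 for OM_UG27_56189978 and -0.31 for OM_UG27_56259001 (log2). OM_UG27_56189978 passed in 9 and OM_UG27_56259001 in 10 of 23 alternatives.

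High and low name numbers held similar shares of these calls. Among the 5160 tested members with numbers of 56000000 or more, 58 were higher (1.12%) and 19 lower (0.368%) in salt eggs. Among the 1630 with lower numbers, 22 were higher (1.35%) and 6 lower (0.368%). Below the adjusted threshold the bands were less alike: at an unadjusted p under 0.05, 477 high-number members were higher (9.24%) and 773 lower (15.0%), while 150 lower-number members were higher (9.20%) and 128 lower (7.85%). In number-only probes these shares were 7.65% higher and 7.17% lower, and in all tested probes 8.08% and 8.35%.

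Over all tested members, the median salt minus control difference was -0.08 (log2), against 0.01 for number-only probes and 0.06 for SS_UG probes. At matched level the members stood at -0.08 and number-only probes at 0.00, a gap of -0.08. Between single eggs the same measure had an SD of 0.13 within groups, at 0.04 among salt eggs and 0.18 among control eggs. That SD is not the error of a difference between group means, and the gap was not tested. The gap was -0.16 on slide 1, where control egg 2 lies, and -0.02 on slide 2, and -0.01 without control egg 2. Without control eggs 4 and 5 it was -0.18, and without control eggs 2 and 3 it turned to 0.02. The gap was -0.11 in high-number members and 0.01 in lower-number members. The median absolute difference, without regard to sign, was 0.32 in members and 0.28 in matched number-only probes. It was 0.34 against 0.28 for high-number members and 0.28 against 0.26 for lower-number members, and no test of these gaps was run. By level, the median absolute difference was 0.53 in both classes at -4 to -3 (571 members). It was 0.34 against 0.32 at -3 to -2 (1786 members) and 0.31 against 0.27 at -2 to -1 (1618 members). For the 273 members at a level of 2 to 3 it was 0.25, against 0.15 for number-only probes.

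The remaining special cases were few. The 14 members whose names end in _AS included 5 that were tested, and none passed the test of salt against control (limma adjusted p between 0.468 and 0.943). The brightest of them, OM_UG27_56278861_AS, lay at 1.35, 1.44, 1.45 and 1.31 in salt eggs and 0.95, 1.33, 1.47 and 0.83 in control eggs, which overlapped. OM_UG27_56260972_AS lay at -2.61, 0.49, 0.98 and -1.74 in salt eggs 1, 3, 5 and 6, and at 0.55, -0.25, -4.09 and -3.25 in control eggs 2, 3, 4 and 5, so that control eggs 4 and 5 were low here too. For 2 target names there were 2 probes each, 1 with a single spot and 1 with 10 spots. None of the 4 was detected in any egg.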

How the data were processed

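Total RNA of 8 single eggs was labelled with Cy3 and hybridised to 1-colour Agilent arrays, 1 per egg. The deposited files give spot intensity, background-subtracted by Agilent Feature Extraction 10.7 per the submitters' processing notes and the file headers. The authors' deposited value table holds log2 values for 43408 probes (11523 members), with scale and centring not stated, and was used as an alternative. From the intensity files, 198 spots with an outlier flag (25 of OM_UG27) were dropped, spots of a probe were averaged, and log2 values minus the 75th percentile of the array were taken. No probe spot was saturated. This left 16 member values missing, 8 of them in tested members, which limma 3.58.1 (R 4.3.3) fitted on the remaining eggs.

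A probe was detected where at least 50% of its kept spots were well above background, and tested where it was detected on every measured array of a group. limma (lmFit, eBayes, group only, two-sided) was fitted over 30941 probes with Benjamini-Hochberg adjustment at 0.05, after being tested on simulated data. Matched comparisons used bins of 0.25 (log2) that held at least 20 number-only probes, weighted by members. With 4 arrays a group, their number limits how precise a value can be.

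Named members are the 6 largest increases and decreases past the threshold that were detected on all 8 arrays with groups not overlapping, the 3 largest of each direction not detected in the dimmer group, the 4 of highest mean level, and the 3 with the largest SD in each group among those detected on all arrays. Of these 28, 26 have a single spot. The normexp alternative used the median spot signal, because the files used here have no mean signal column. Other alternatives changed the scaling, filter, variance model, blocks and eggs included. The members and lists were chosen with earlier results of these data known.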

Additional observations from a re-analysis of the deposited data

Results flagged for a closer look

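In 6 of 72 groups of 4 eggs checked (8 measures per egg and 28 named members), 1 egg stood apart from the other 3 by Dixon's criterion, which chance meets in about 1 in 20 groups. Of these 6, 3 are members named for their large SD among eggs, so the 6 of 72 cannot be read against that rate. Over all tested members the share was 4.96% in salt eggs and 4.21% in control eggs, against 5.09% and 4.07% for number-only probes. The median deviation of the members relative to matched number-only probes was -0.10 in salt egg 5, while salt eggs 1, 3 and 6 lay between -0.02 and -0.01. OM_UG27_56233362 was at 10.48 in salt egg 1 and between -1.30 and -1.08 in salt eggs 3, 5 and 6, and OM_UG27_21940193 was at 11.42 in the same egg, against 0.995 to 1.35. OM_UG27_56299070 was at 3.68 in salt egg 5, against -2.31 to -1.65. Among control eggs, OM_UG27_56279060 was at -2.05 in control egg 2, against -3.26 to -3.09. OM_UG27_34424371, not well above background in any control egg, was at -4.94 in control egg 3, against -5.78 to -5.74.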

How the results depend on the processing

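The count of 105 members past the threshold (1.55% of those tested, against 0.743% of number-only probes) was 284 at an adjusted p under 0.10 (4.18%, against 2.09%). It was 50 with normexp (0.736%, against 0.238%), 175 with median centring (2.58%, against 1.22%) and 66 with no filter on dim probes (0.400%, against 0.252%). Among probes detected on all 8 arrays it was 24 (0.423%, against 0.218%). It was 222 with array weights (3.27%, against 1.51%) and 0 in both classes within slide 1 alone (limma). Leaving out 1 egg gave 0 to 176 (0 to 2.59%, against 0.00458% to 1.16%). Leaving out control eggs 2 and 3, chosen after seeing the data, gave 374 (5.51%, against 2.87%). With the replicate number as a block no member and no number-only probe passed (830 members, 12.2%, at an unadjusted p under 0.05, against 7.03%). Only eggs whose number occurs in both groups inform the salt difference there. That fit could hardly call a probe, so nothing is read from its count. Salt and control share only the numbers 3 and 5, whose eggs' deviations from their group means correlated at 0.22 and -0.11 over all tested probes, so the numbers were not taken to pair eggs. The difference in spread was -0.014 with median centring, -0.0083 with no scaling, 0.022 without control eggs 4 and 5 and 0.035 without matching, against 0.013. The level difference was -0.38 with normexp. The detected share was 70.9% by the software's other criterion (signal positive and significant), against 46.5%, with number-only probes at 82.1% and 65.1%. The gap between high-number members and number-only probes in the contrast of control eggs 2 and 4 was 0.33 with normexp and 0.28 with no filter, against 0.53. The causes were not tested. The salt difference at matched level ran from -0.18 to 0.02. Of 666 alternative values for named members, 464 kept direction and side of the threshold, 163 lost the call, 10 gained it and 29 changed sign. None of the 18 named members past the threshold changed sign; 9 of the 10 others did, in values that did not pass. On slide 1 by itself, and then with control eggs 4 and 5 left out, OM_UG27_48428132 was at 0.17 and 0.076, OM_UG27_51824250 at 0.034 and 0.072, OM_UG27_56290392 at -0.26 and -0.27, OM_UG27_56236193 at -0.34 and -0.44, OM_UG27_56247822 at -1.06 and -0.87, OM_UG27_56276572 at -1.34 and -1.03, and OM_UG27_56243675 at -1.11 and -0.93. OM_UG27_48428132 was at 0.0032 with quantile normalisation and 0.020 in the value table. OM_UG27_56233362 was at -0.038 within slide 2 alone and -0.40 with the replicate block, and from -0.29 to 3.63 with 1 egg left out. OM_UG27_56299070 was at 0.38 with normexp, 0.11 with no scaling, 1.61 within slide 2 alone, 0.69 with the replicate block and 0.10 without control eggs 2 and 3, and from -1.44 to 0.56 with 1 egg left out. Dim members, which make up most of the class, are limited by signal over background.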
